A study of Mus musculus with 45 samples.

Results

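The miRNome of alveolar macrophages (AM) from SP-A2 (1A0) males was compared between filtered air (FA) and ozone (O3). The table of these males lists 448 mature miRNAs, out of 476 listed in at least 1 of the 6 tables of the series. All 448 were kept as members, and 206 of them are listed in every table. SP-A2 is 1 of the human surfactant protein A proteins, made in the lung by the epithelium and known to act on AM. The males carried the human SP-A2 variant 1A0, without SP-A1, on a C57BL/6J background that lacks mouse SP-A, so that both groups share the absence of the mouse protein. They were 12 weeks old. In each group, 3 males were exposed for 3 h to FA or to O3 at 2 ppm, and AM were taken by bronchoalveolar lavage after 18 h of recovery. The promoter of the transgene and the number of founder lines are not given in the sources used here. Females of SP-A2, mice that carry both SP-A1 and SP-A2 (co-ex) and SP-A knockout (KO) mice were exposed in the same way and serve below only to compare responses. The whole series has 45 mice.

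A miRNA is a short RNA cut from a hairpin precursor. The precursor can release 2 mature strands, the 5p and the 3p arm, and usually 1 of them is loaded into Argonaute and kept. The loaded strand finds its mRNA targets mainly through its seed, bases 2 to 8, and lowers their translation and stability. In macrophages, miR-155 and miR-146a are known to be induced by inflammatory signals, miR-223 and miR-142 mark hematopoietic cells, and the let-7 family is abundant in resting, differentiated cells.

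RefSeq (GRCm38.p6) gave a mature sequence for 383 of the 448 miRNAs. The sequences below are those on which the results turn. They are written 5′ to 3′ with the seed in capitals, and are shown first for the miRNAs that passed the test between FA and O3 and for the other arm of miR-142a.
miR-142a-3p: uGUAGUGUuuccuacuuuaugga
miR-142a-5p: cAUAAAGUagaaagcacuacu
miR-10a-5p: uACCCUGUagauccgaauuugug
miR-126a-3p: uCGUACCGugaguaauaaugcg

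The next sequences belong to miRNAs whose arms or whose response to O3 differed. let-7i-5p, let-7g-5p and miR-1961, which share a seed, are given together, so that their shared start can be seen.
miR-155-5p: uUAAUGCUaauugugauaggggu
miR-34b-3p: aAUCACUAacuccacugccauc
let-7i-5p: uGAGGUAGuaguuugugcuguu
let-7i-3p: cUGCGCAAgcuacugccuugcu
let-7g-5p: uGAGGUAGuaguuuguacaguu
miR-1961: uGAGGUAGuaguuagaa
miR-1912-3p: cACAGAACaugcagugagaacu
miR-1298-5p: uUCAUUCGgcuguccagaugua

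In GRCm38, the hairpin of miR-142a lies at chr11:87756864-87756927, in an intron of the noncoding gene Mir142hg. That of miR-10a lies at chr11:96317165-96317274, outside any other annotated gene. The hairpin of miR-126a lies at chr2:26591357-26591429, inside an exon of Egfl7, an endothelial gene. The hairpin of miR-155 lies at chr16:84714140-84714204, in an exon of Mir155hg, and that of let-7i lies at chr10:122985640-122985724.

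The values are the normalized values of the deposited table, in which the reads on each miRNA are divided by a factor of the mouse. Within this table they gave back whole reads. The listed miRNAs held 463196, 737471 and 699132 reads in FA replicates 1 to 3, and 1280171, 1390373 and 823908 reads in O3 replicates 1 to 3. Each O3 mouse thus had more reads than any FA mouse. They also had more miRNAs with a nonzero value (401 to 427, against 366 to 388 in FA). A value of 3 reads corresponded to 3.52 to 5.23 in FA and to 2.19 to 2.83 in O3. The part of depth in the results for miRNAs of low level was not tested. Every listed miRNA has a nonzero value in at least 3 mice of the table, so a miRNA at 0 in all FA mice had to be present in all O3 mice.

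O3 replicate 3 stood apart. Its Spearman correlation with O3 replicates 1 and 2 over the 448 miRNAs was 0.811 and 0.868. It was 0.898 between O3 replicates 1 and 2 and 0.861 to 0.876 between FA mice. The mean GC content of the miRNA sequences, weighted by reads, was 47.7% in O3 replicate 3 and 41.5% to 43.9% in the other mice. The counts of calls, and the calls of lists and named miRNAs that this mouse changes most, are given with and without it. This mouse was singled out after its values were seen. Leaving out O3 replicate 1 also raised the number of calls, as given below.

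Between O3 and FA, 3 miRNAs passed an FDR of 0.1 (limma, Benjamini-Hochberg over 448 miRNAs), which is 0.67% of those tested. miR-142a-3p fell (1 lower, 0.223%), and miR-10a-5p and miR-126a-3p rose (2 higher, 0.446%). At an unadjusted p below 0.05, 52 miRNAs (11.6%) had higher and 27 (6.03%) had lower values after O3. The FA and O3 values did not overlap for 57 miRNAs (12.7%) that were higher and 43 (9.6%) that were lower. Of the 57, 15 were at 0 in every FA mouse and had to differ for the reason given above, which leaves 42. The same holds for 14 of the 52 with higher values at an unadjusted p below 0.05, which leaves 38. The balance of higher and lower counts was thus in part set by which miRNAs the table lists. The median difference over all 448 miRNAs was 0.17 on the log2(value + 1) scale, and 256 of the 448 had a difference above 0. Without O3 replicate 3, 40 miRNAs (8.93%) passed, 24 higher (5.36%) and 16 lower (3.57%), and the 3 named above were among them. Of the 24, 4 were at 0 in every FA mouse. The FA and O3 values of all 6 mice overlapped for 17 of these 40.

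**Figure D1:**
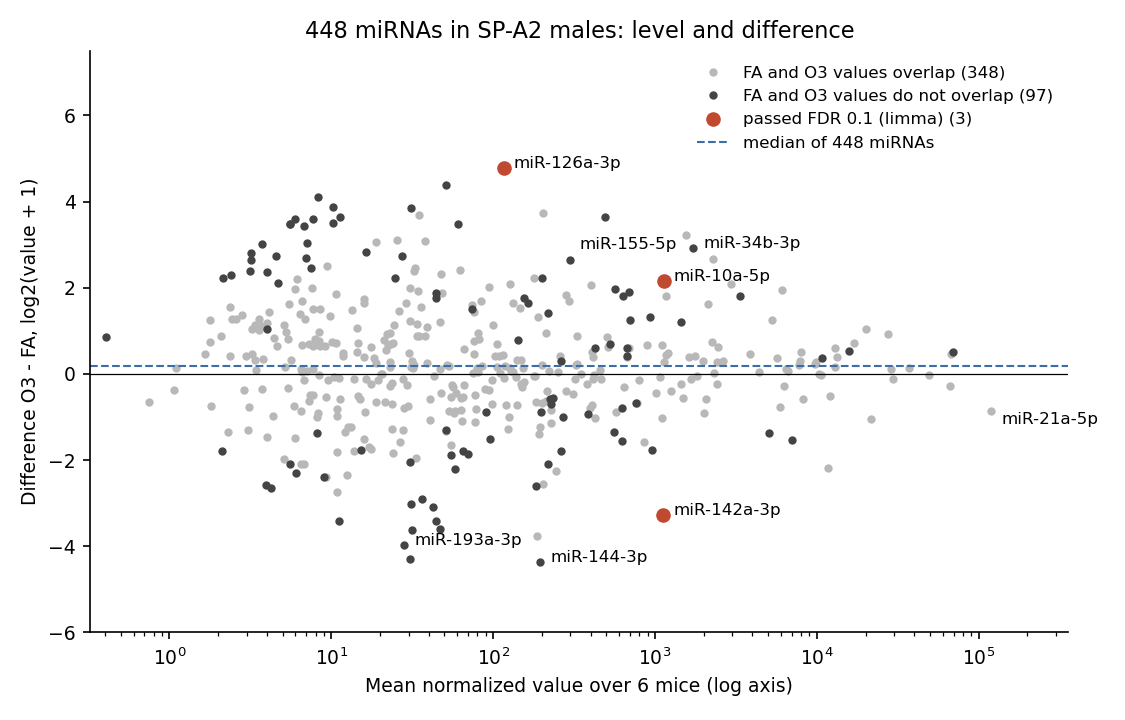
Each point is 1 of 448 miRNAs, with the mean normalized value over 6 SP-A2 males on the x axis (log axis) and the O3 minus FA difference on the log2(value + 1) scale on the y axis. The 3 red points passed the FDR of 0.1, 97 black points did not pass but have FA and O3 values that do not overlap, and the dashed line marks the median of 0.17.

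miR-142a-3p is made in hematopoietic cells. Its normalized values were 2407, 1457 and 2256 in the FA mice and 172, 272 and 180 in the O3 mice, so each O3 mouse was far below each FA mouse. The mean was 9.80-fold lower after O3, with a log2 difference of -3.28 (SE 0.40, limma adjusted p = 0.00435). It passed without any 1 of the 6 mice and under each of 7 other settings. The 5p arm from the same hairpin had 2574, 3078 and 2109 in FA and 2580, 2698 and 1448 in O3. Its groups overlapped, with a log2 difference of -0.24 (SE 0.38, adjusted p = 0.811). Both arms were thus at a like level in FA, and only the 3p arm passed the test.

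miR-10a-5p, encoded in the Hoxb cluster, had 291, 467 and 510 in FA and 2231, 1911 and 1427 in O3. Each O3 mouse was above each FA mouse, and the mean was 4.39-fold higher, with a log2 difference of 2.15 (SE 0.39, adjusted p = 0.0576). It passed in 2 of 6 fits that left out 1 mouse, with adjusted p up to 0.298. Its 3p arm had 1, 0 and 0 reads in FA and 23, 28 and 3 reads in O3 (log2 difference 3.04, SE 1.11, adjusted p = 0.207). miR-10b-5p, which has the same seed, had 7.0, 20.4 and 18.8 in FA and 34.3, 14.6 and 42.4 in O3, with overlapping groups.

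miR-126a-3p, a miRNA of endothelial cells, was near the limit of detection in FA, with 5.2, 3.6 and 10.6, or 3, 3 and 9 reads. In O3 it had 344, 259 and 76.3, or 452, 354 and 81 reads. The groups did not overlap (log2 difference 4.78, SE 0.91, adjusted p = 0.0576). Like miR-10a-5p, it passed in 2 of 6 fits that left out 1 mouse, with adjusted p up to 0.298. miR-126a-5p had no read in the FA mice, with 3 reads as the limit in each, and 19, 2 and 3 reads in the O3 mice. This arm is listed only because it was present in every O3 mouse, so its difference adds nothing to that of the 3p arm.

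**Figure D2:**
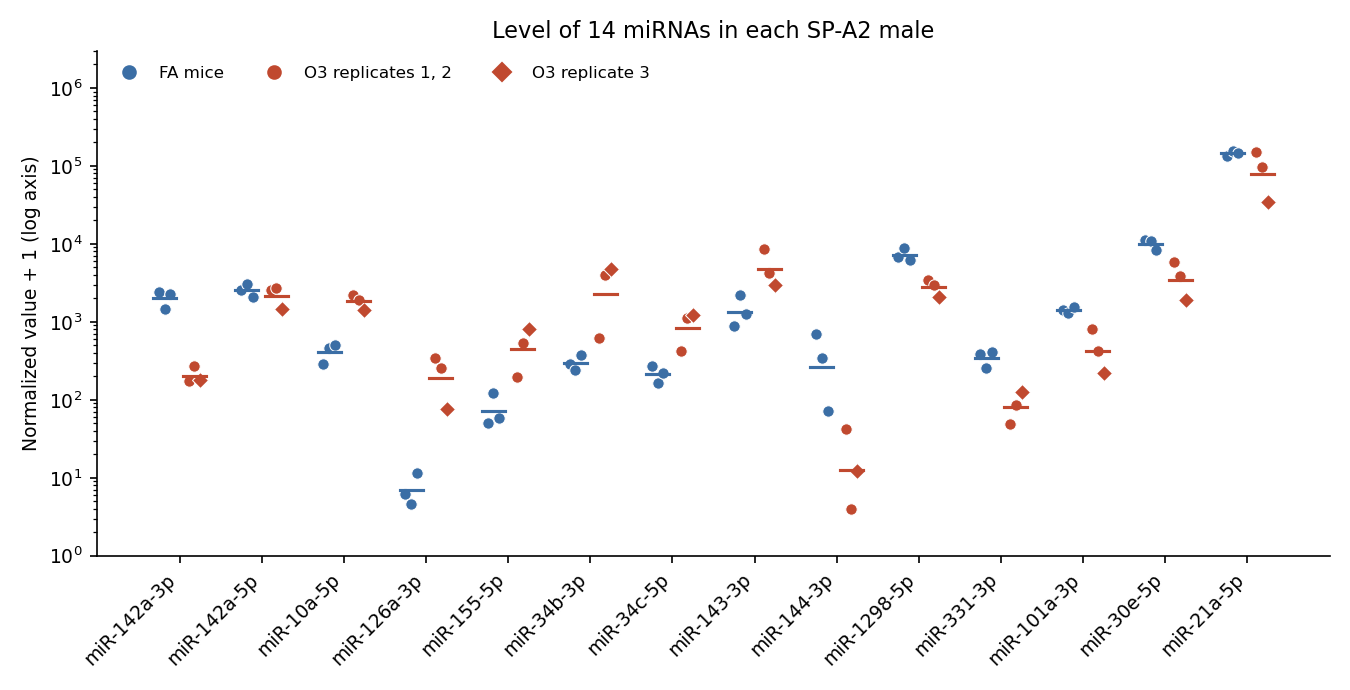
Normalized value + 1 (log axis) of 14 miRNAs in each SP-A2 male, with FA mice in blue, O3 mice in red and O3 replicate 3 as a diamond. Horizontal bars are the means on the log scale. miR-142a-3p is lower in each O3 mouse while miR-142a-5p overlaps, and miR-10a-5p and miR-126a-3p are higher in each O3 mouse.

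Among the miRNAs known from macrophage activation, miR-155-5p had 48.8, 123 and 57.5 in FA and 197, 541 and 817 in O3. The groups did not overlap, but the difference of 2.64 (SE 0.65) did not pass the FDR (adjusted p = 0.118). miR-146a-5p, a brake on Toll-like receptor signaling, had 309, 541 and 365 in FA and 367, 2444 and 2959 in O3. Here O3 replicate 1 lay within the FA range, and the difference of 1.81 (SE 0.71) had an adjusted p of 0.224. miR-146b-5p, its close relative, had 40895, 54177 and 43413 in FA and 56531, 80513 and 19729 in O3, so that O3 replicates 1 and 2 were above and O3 replicate 3 below every FA mouse. miR-223-3p overlapped (2939 to 6299 in FA, 2266 to 6985 in O3). miR-21a-5p, the most abundant miRNA of the table, had 134571, 154675 and 146139 in FA and 149801, 98088 and 34645 in O3. Its passenger strand miR-21a-3p had 159, 138 and 128 in FA and 52.5, 46.01 and 47.1 in O3, with a difference of -1.52 (SE 0.58, adjusted p = 0.214).

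Of 18 listed myeloid miRNAs, 16 are in the table. Their median difference was -0.01, beside 0.17 for all miRNAs, and 2 had higher (11.6% over all miRNAs) and 2 had lower values (6.03%) at an unadjusted p below 0.05. Their summed level was 219773 to 237620 in FA and 66532 to 231993 in O3, with the lowest value in O3 replicate 3. In each mouse miR-21a-5p was the largest part of this sum (134571 of 219773 in FA replicate 1, 34645 of 66532 in O3 replicate 3). The mouse labels give AM as the cell type, and of the miRNAs that mark myeloid cells, miR-223-3p, miR-142a-5p and both arms of miR-511, hosted by the mannose receptor gene, were present in every mouse.

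The miRNAs that mark other cells of the lung were also present. The mesenchymal list (miR-143, miR-145a, miR-199, miR-214, miR-218 and miR-152, abundant in fibroblasts and smooth muscle) had 10 of 12 members in the table. All 10 differences were above 0 (256 of 448 over all miRNAs). Their median was 1.63, and 4 had higher values at an unadjusted p below 0.05 (11.6% over all miRNAs), while none passed the FDR with all mice. Of the 4, miR-214-5p, was at 0 in every FA mouse, so its direction was set by the listing, and the other 9 members had a median of 1.43 with 3 at an unadjusted p below 0.05. Their summed level was 1462 to 2853 in FA and 4240 to 12278 in O3. Without O3 replicate 3 the median was 1.81 and 3 of the 10 passed (5.36% over all miRNAs). miR-143-3p, the most abundant of them, had 877, 2229 and 1273 in FA and 8616, 4201 and 3003 in O3 (difference 1.82, SE 0.49, adjusted p = 0.118). miR-145a-3p had 0, 9.6 and 4.7 in FA and 158, 103 and 33.0 in O3 (difference 4.39, SE 1.21, adjusted p = 0.118). Its 5p arm had 78.4, 118 and 111 in FA and 167, 127 and 254 in O3, higher in each O3 mouse but by less (0.79, SE 0.54). miR-214-5p had no read in FA and 6, 15 and 49 reads in O3, at least 4.99-fold higher against a level of 3 reads in each FA mouse. miR-199b-3p, whose sequence is shared with miR-199a-3p, had 230, 222 and 189 in FA and 2388, 871 and 241 in O3 (difference 1.89, adjusted p = 0.214), and without O3 replicate 3 it passed (2.75, adjusted p = 0.0197).

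The epithelial list had 18 of 22 members in the table, with a median of 0.71. At an unadjusted p below 0.05, 5 had higher (11.6% over all miRNAs) and 1 had lower values (6.03%). With all mice none passed the FDR, and without O3 replicate 3, 4 passed, all higher (5.36%). The summed level was 6862 to 9992 in FA and 13400 to 18231 in O3. miR-34b and miR-34c come from 1 transcript, are abundant in multiciliated cells and are induced by p53. miR-34b-3p had 289, 242 and 379 in FA and 616, 4032 and 4801 in O3 (difference 2.93, SE 0.70, adjusted p = 0.118). miR-34c-5p had 268, 161 and 217 in FA and 417, 1107 and 1226 in O3 (difference 1.97, SE 0.51, adjusted p = 0.118). In both, O3 replicate 1 was the lowest O3 mouse and still above the FA mice. miR-34c-3p had 57.5, 6.0 and 88.1 in FA and 19.8, 621 and 285 in O3, with overlap. Of the miR-200 family, which keeps the epithelial state, miR-429-3p had 403, 291 and 512 in FA and 980, 1457 and 574 in O3 (difference 1.26, SE 0.45, adjusted p = 0.207), whereas miR-200c-3p overlapped (1612 to 3180 in FA, 2078 to 4017 in O3). miR-375-3p had 410, 460 and 598 in FA and 602, 1349 and 2150 in O3. In the other direction, miR-135b-5p had 81.9, 77.0 and 68.1 in FA and 27.4, 11.7 and 0 in O3, and miR-205-5p, of basal cells, overlapped (248 to 353 in FA, 73.0 to 293 in O3).

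Erythroid miRNAs lay in the opposite direction. The 4 of 7 listed members in the table had a median of -2.37. miR-144-3p had 704, 343 and 71.6 in FA and 41.1, 2.9 and 11.3 in O3, a difference of -4.36 (SE 1.10, adjusted p = 0.118), with FA replicate 3 closest to the O3 mice. miR-144-5p and miR-451a come from the same transcript and overlapped between the groups. miR-451a, the defining miRNA of red cells, had only 74.95, 37.3 and 11.7 in FA and 24.4, 9.5 and 8.5 in O3. miR-486b-5p, whose sequence is shared with miR-486a-5p, had 26571, 23183 and 5339 in FA and 2225, 1298 and 12064 in O3. FA replicate 3 and O3 replicate 3 crossed here, with a difference of -2.19 (adjusted p = 0.214) with all mice and of -3.13 (adjusted p = 0.0358) without O3 replicate 3. Of the lymphoid list, with 5 of 6 members in the table and a median of -0.09, miR-150-5p had 270, 207 and 251 in FA and 193, 1733 and 11021 in O3, so that 1 mouse held most of its level. The 4 miR-181 members had differences between -0.28 and 0.40.

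The marker lists of mesenchymal and epithelial cells each had a summed level that did not overlap between FA and O3. In each mouse miR-143-3p made up most of the mesenchymal sum. The endothelial list holds only the 2 arms of miR-126a, so its sum repeats the result of miR-126a-3p. The list of miR-10, miR-99/100 and miR-125b, not chosen to mark a cell type, had sums without overlap too (37112.7 to 43483.5 in FA, 43880 to 56394 in O3). The part of mesenchymal, epithelial and endothelial cells in the differences was not tested. In these bulk libraries, a change in the share of a cell type and a change of level within a cell cannot be told apart.

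**Figure D3:**
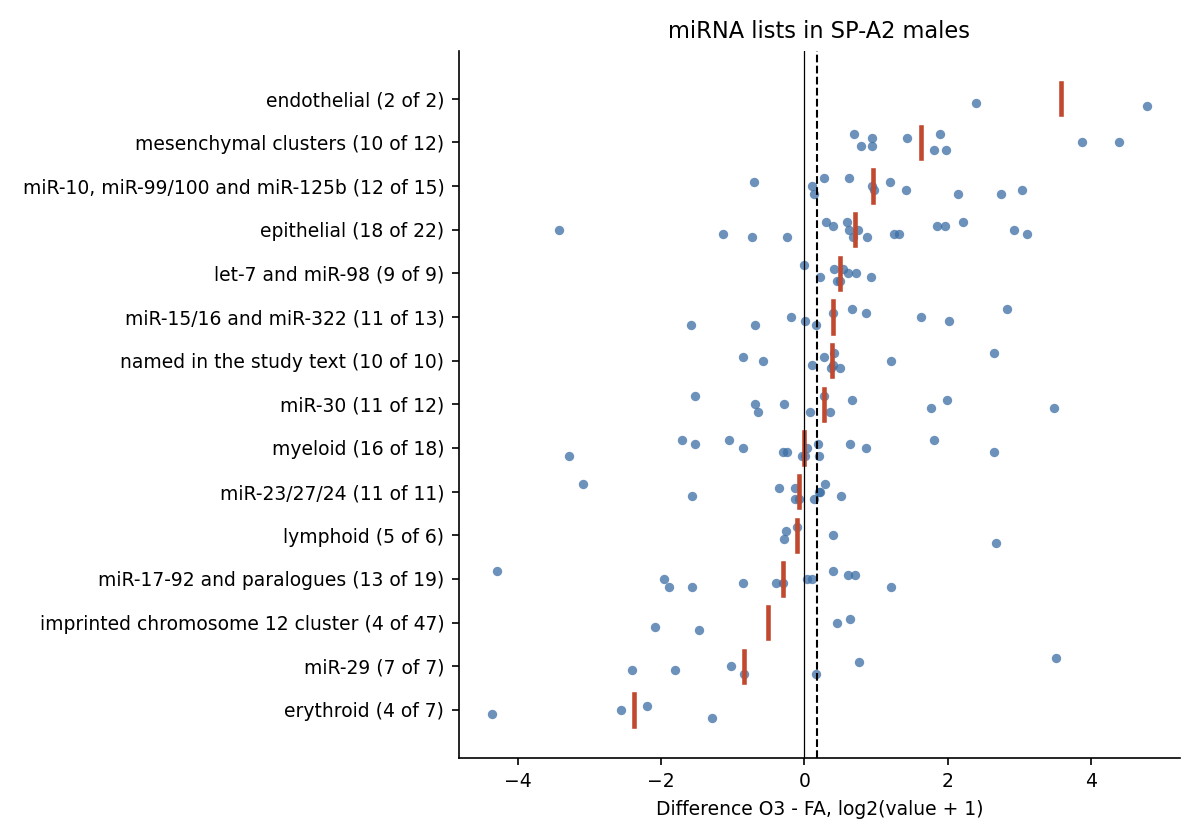
Each blue point is a miRNA of a list, placed by its O3 minus FA difference on the log2(value + 1) scale. Red bars are list medians, the dashed line is the median of all 448 miRNAs (0.17) and brackets give how many of the listed miRNAs are in the table. The mesenchymal list lies to the right (median 1.63) and the erythroid list to the left (median -2.37).

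All 9 members of the let-7 and miR-98 list had a difference above 0 (256 of 448 over all miRNAs). The differences ran from 0.0013 for let-7e-5p to 0.93 for let-7g-5p, with a median of 0.50. None passed the FDR or an unadjusted p below 0.05 with all mice. let-7g-5p had 19515, 16807 and 17142 in FA and 44019, 52030 and 16830 in O3. let-7i-5p had 12916, 12930 and 10485 in FA and 27812, 28337 and 10005 in O3. In both, O3 replicates 1 and 2 had more than any FA mouse and O3 replicate 3 had a level near that of the FA mice. Without O3 replicate 3, let-7g-5p had a difference of 1.43 (adjusted p = 0.0183) and let-7i-5p of 1.22 (adjusted p = 0.0292). These 2 of the 9 then passed (5.36% higher over all miRNAs), with the O3 mouse near the FA level left out. let-7a-5p, the most abundant of the family, had 43677, 71056 and 59636 in FA and 82665, 89294 and 71265 in O3.

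miR-1961 has the let-7 seed and shares its first 13 bases with let-7g-5p and let-7i-5p, out of 17 in the RefSeq sequence. How the counting separated such reads is not given in the sources used here. It had 59.3, 39.7 and 21.1 in FA and 93.7, 497 and 2240 in O3 (difference 3.64, SE 1.01, adjusted p = 0.118). It was highest in O3 replicate 3, where let-7g-5p and let-7i-5p were lowest among the O3 mice. Over the 11 miRNAs with this seed the differences ran from 0.00 to 3.64.

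The list of miR-10, miR-99/100 and miR-125b, which hold a Hox-linked miRNA family and the let-7-linked clusters, had 12 of 15 members in the table. Of these, 11 had a difference above 0 (256 of 448 over all miRNAs), with a median of 0.96. At an unadjusted p below 0.05, 4 had higher values (11.6% over all miRNAs). With all mice 1 member passed the FDR, miR-10a-5p, and without O3 replicate 3, 3 passed (5.36%). miR-99a-5p had 612, 894 and 1111 in FA and 2969, 1540 and 1625 in O3. miR-100-5p, with the same seed, had 69.7, 171 and 119 in FA and 427, 189 and 337 in O3. miR-99b-5p, also with that seed, overlapped between the groups with a difference of 0.28. miR-125a-5p, a top-10 miRNA, had a difference of 0.11.

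Of the remaining miRNAs with lower values after O3, miR-1298-5p had 6697, 8886 and 6161 in FA and 3477, 2954 and 2074 in O3 (difference -1.37, SE 0.36, adjusted p = 0.118). miR-331-3p had 383, 257 and 411 in FA and 47.98, 84.7 and 126.3 in O3 (difference -2.09, SE 0.54, adjusted p = 0.118). miR-101a-3p, which targets the histone methyltransferase Ezh2, had 1433, 1306 and 1540 in FA and 798, 424 and 219 in O3. These 3 did not overlap between the groups. miR-30e-5p, from an intron of Nfyc, had 11162, 10837 and 8466 in FA and 5780, 3897 and 1887 in O3. Its relative miR-30c-5p, from a hairpin 3076 bases away, overlapped and had a difference of 0.28. Of the miR-30 list, 11 of 12 members are in the table, with a median of 0.28. At an unadjusted p below 0.05, 1 was higher (11.6% over all miRNAs) and 1 was lower (6.03%). Without O3 replicate 3, miR-1298-5p, miR-331-3p, miR-101a-3p and miR-30e-5p passed the FDR, with adjusted p from 0.0358 for miR-331-3p to 0.0839 for miR-101a-3p.

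Some of the miRNAs with lower values after O3 come from neighbouring hairpins. miR-193a and miR-365-2 lie 14419 bases apart on chromosome 11. miR-193a-3p had 47, 28 and 37 reads in FA and 4, 10 and 0 reads in O3, and miR-365-2-5p had 254, 594 and 372 in FA and 120, 65.0 and 175 in O3. Both were named because their FA and O3 values did not overlap, so that trait adds nothing. The other arms, miR-193a-5p (-0.57) and miR-365-3p (-0.79), had differences closer to 0. Their values did not overlap either, beside 9.6% of all miRNAs that were lower without overlap. miR-365-3p can also come from a second hairpin elsewhere.

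Htr2c, the serotonin receptor 2C gene on chromosome X, contains a group of hairpins, and those of miR-1298 and miR-1912 lie in its introns. The table holds 11 miRNAs from 6 hairpins within Htr2c (chrX:146962513-147197277, GRCm38), a group chosen after the values of miR-1298 and miR-1912 were seen. The 7 miRNAs from the other 4 hairpins had differences from -3.03 to 0.00, with a median of -0.999. Of these 7, 1 (miR-3552) was lower without overlap between the groups, beside 9.6% of all miRNAs. Over all 11 the median was also -0.999 (-0.39 without O3 replicate 3). Beside miR-1298-5p, the miRNAs of Htr2c with lower values and no overlap were miR-1298-3p (227, 260 and 245 in FA, 226, 167 and 61.3 in O3), miR-3552 (80.2, 22.9 and 64.6 in FA, 3.8, 11.7 and 2.8 in O3) and miR-1912-5p. For miR-1298-3p the lowest FA and the highest O3 value nearly met, and the difference was -0.87 (SE 0.58, limma adjusted p = 0.471). In the other direction, miR-1912-3p had 5.2, 16.8 and 35.2 in FA and 114, 176 and 28.3 in O3.

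At lower levels, miR-19a-3p of the miR-17-92 cluster had 57, 30 and 28 reads in FA and 21, 0 and 0 reads in O3. Of its list, 13 of 19 members are in the table, with a median of -0.29. miR-19a-3p was the 1 member with an unadjusted p below 0.05 (17.6% over all miRNAs). miR-32-5p had 512, 140 and 277 in FA and 54.1, 107 and 14.1 in O3. miR-23a-5p, the passenger strand of miR-23a, had 678, 1336 and 751 in FA and 193, 253 and 539 in O3, while miR-23a-3p overlapped (difference 0.14). miR-1198-3p had 4, 23 and 25 reads in FA and 3, 1 and 0 reads in O3. Among those with higher values, miR-6236 had 272, 226 and 264 in FA and 439, 1056 and 1549 in O3. miR-29b-2-5p had 3 reads at most in FA and 18 to 32 in O3, whereas miR-29b-3p, its other arm, had 364 to 807 in FA and 156 to 546 in O3. miR-874-3p had 1 read at most in FA and 5 to 47 in O3. Both miR-29b-2-5p and miR-874-3p had reads in only 1 FA mouse. Their listing thus rested on the O3 mice, and their direction was in large part set by it. The miR-29 list (7 of 7, median -0.84), the miR-15/16 and miR-322 list (11 of 13, median 0.40), the miR-23/27/24 list (11 of 11, median -0.07) and the imprinted chromosome 12 cluster (4 of 47, median -0.50) had at most 2 members each with an unadjusted p below 0.05 with all mice. Over all miRNAs that share was 17.6%. Without O3 replicate 3, 3 members of the miR-15/16 and miR-322 list passed the FDR, all higher (miR-16-5p, miR-195a-5p and miR-322-3p), beside 5.36% of all miRNAs. With all mice, the FA and O3 values of each of these 3 overlapped. The list of 10 miRNAs that the study names in its text, all in the table, had a median of 0.39. This list was chosen by the study on these samples and is not independent evidence of its direction.

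The 10 most abundant miRNAs were miR-21a-5p, let-7a-5p, let-7f-5p, miR-30d-5p, miR-146b-5p, miR-23a-3p, miR-24-3p, miR-125a-5p, let-7g-5p and miR-22-3p. They held 58.5%, 62.6% and 62.1% of the reads on listed miRNAs in FA and 60.9%, 61.4% and 45.1% in O3. The difference of -5.24 points gave p = 0.5 in a two-sided exact permutation test of 3 against 3, which cannot give less than 0.1. The lowest share was that of O3 replicate 3, and without this mouse the difference was 0.10 points.

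The ratio of the 2 arms of a hairpin depends little on the factor of the mouse, except through the added 1 where an arm has few reads. It was tested for the 84 precursors whose arms both had a mean of at least 10. Of these, 3 passed an FDR of 0.1 (3.57%, limma), let-7i and miR-142a with a higher ratio (2.38%) and miR-1912 with a lower ratio (1.19%). For let-7i, the log2 ratio of 5p to 3p was 6.82, 7.44 and 6.68 in FA and 10.10, 9.94 and 9.67 in O3, a difference of 2.92 (SE 0.50, adjusted p = 0.0499). let-7i-3p had 113, 73.4 and 101 in FA and 24.4, 27.8 and 11.3 in O3, so O3 replicate 3 had a ratio like those of the other O3 mice even though its let-7i-5p was at the FA level. For miR-142a, the ratio was 0.10, 1.08 and -0.10 in FA and 3.90, 3.30 and 3.00 in O3, a difference of 3.04 (SE 0.69, adjusted p = 0.0804).

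For miR-1912 the arms exchanged their order. The log2 ratio was 4.70, 1.496 and 0.33 in FA and -2.90, -3.72 and -4.87 in O3, a difference of -6.005 (SE 1.19, adjusted p = 0.0583). miR-1912-5p had 92, 41 and 38 reads in FA and 19, 17 and 0 reads in O3, and miR-1912-3p had 3, 14 and 30 reads in FA and 150, 241 and 30 reads in O3. The 5p arm was thus the more abundant in each FA mouse and the 3p arm in each O3 mouse. Fits without 1 mouse kept the call of let-7i and of miR-1912 in 2 of 6 and that of miR-142a in 0 of 6, with adjusted p up to 0.258. At an unadjusted p below 0.05, 7 precursors (8.33%) had a higher ratio, and 7 (8.33%) had a lower ratio.

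**Figure D4:**
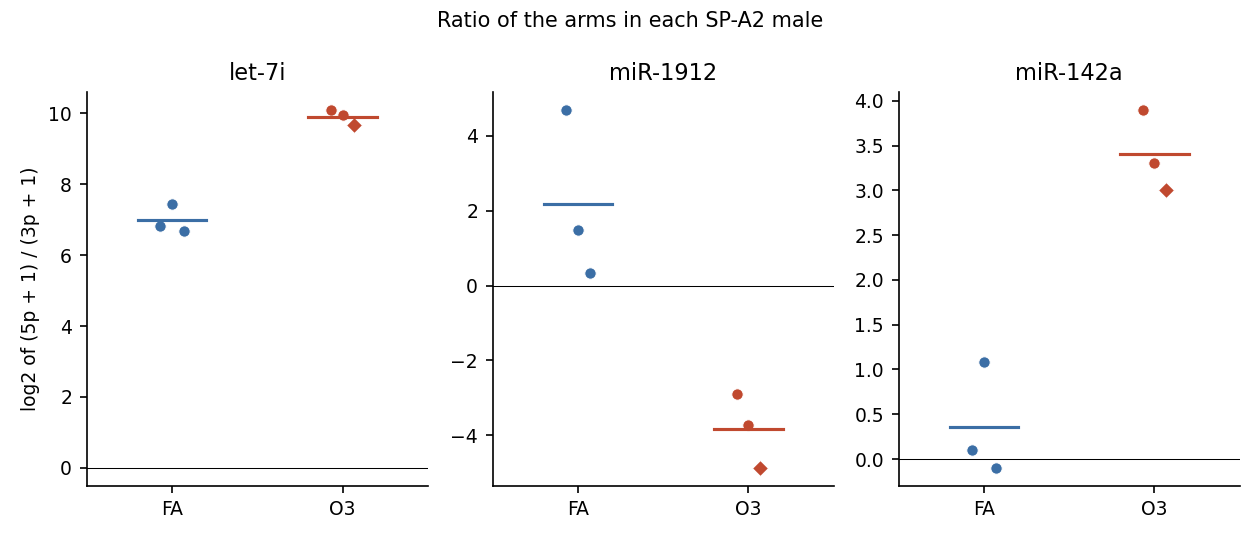
Log2 of (5p + 1) / (3p + 1) for let-7i, miR-1912 and miR-142a in each SP-A2 male, with FA in blue, O3 in red, O3 replicate 3 as a diamond and bars at the group means. The FA and O3 mice do not overlap in any of the 3 panels, and miR-1912 crosses 0, where both arms are equal.

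The response of SP-A2 males to O3 was then compared with those of other groups, as an interaction in limma over the shared miRNAs. Each group has its own FA mice. Against SP-A2 females, 1 of 354 miRNAs passed (0.282%), miR-155-5p, and 16 (4.52%) had an unadjusted p below 0.05. In females it had 352 to 811 (median 672) in 4 FA mice and 61.5 to 190 (median 115) in 4 O3 mice. Within the table of the females this difference passed the FDR (limma adjusted p = 0.0454). The response was thus 2.64 in males and -2.42 in females, a difference of 5.06 (SE 0.83, adjusted p = 0.0047). In each sex of SP-A2 the FA and O3 mice did not overlap. The rise was not seen without overlap in other males. The median of miR-155-5p was 445.5 in FA and 212.6 in O3 for KO males. It was 679.8 and 755.2 for co-ex males, 313.2 and 587.3 for KO females, and 763.8 and 646.3 for co-ex females. FA and O3 mice overlapped in each of these groups. The contrast of males and females thus holds for SP-A2 only.

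In the SP-A2 females, miR-142a-3p had 544 to 689 (median 676) in FA and 180.9 to 337 (median 228) in O3, without overlap, and within their own table the difference did not pass (adjusted p = 0.147). The response of -1.45 in females and of -3.28 in males differed by -1.84 (SE 0.53), with an adjusted p of 0.427 over the 354 miRNAs. Against KO males, 1 of 320 miRNAs passed (0.312%), and it was miR-142a-3p, with 20 (6.25%) at an unadjusted p below 0.05. In KO males it had 134.6 to 502 in FA and 237 to 928 in O3, a response of 1.20, which differed from that of SP-A2 males by -4.48 (SE 0.84, adjusted p = 0.0236). This call was lost without FA replicate 1 or FA replicate 3 of the SP-A2 males. The response was not tested against KO females, where miR-142a-3p had 0 to 660 (median 307) in FA and 0 to 116 (median 63.6) in O3. Co-ex females had 0 to 1004 (median 104) in FA and 0 to 251 (median 73.9) in O3.

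Against co-ex males, 0 of 227 miRNAs passed (limma), with 9 (3.96%) at an unadjusted p below 0.05. The co-ex males held miR-142a-3p at 0 in some mice of both exposures, so its response there was poorly determined (difference -4.46, SE 3.57).

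miR-10a-5p and miR-126a-3p had responses of the same sign in those of the other groups compared that list them. For miR-10a-5p, where SP-A2 males had 2.15, the KO males had a response of 2.25, the co-ex males of 3.42 and the SP-A2 females of 1.55. None of these 3 passed within its own table, with adjusted p from 0.174 to 0.881. For miR-126a-3p it was 5.37 in SP-A2 females and 6.09 in KO males, beside 4.78 in SP-A2 males. It is not listed for co-ex males. Its FA median was 0 in SP-A2 females (highest 30.6) and in KO males (highest 0.93), and its lowest O3 value in KO males was 0. Its listing in these groups thus rested mainly on the O3 mice, so its sign there adds little. The differences in response were between -1.30 (SE 2.62) and 0.60 (SE 0.65), and none passed. The arm ratio of let-7i had a response of -0.83 (SE 1.36) in SP-A2 females and of -1.46 (SE 1.95) in KO males. In KO females it was 1.04 (SE 1.90). The arm ratio of miR-142a had a response of 0.81 (SE 0.72) in SP-A2 females and of -1.56 (SE 1.05) in KO males. In KO females that of miR-142a was 2.67 (SE 1.39), in co-ex males 0.04 (SE 4.49) and in co-ex females -0.94 (SE 2.28). The differences of the arm ratios between groups were not tested.

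**Figure D5:**
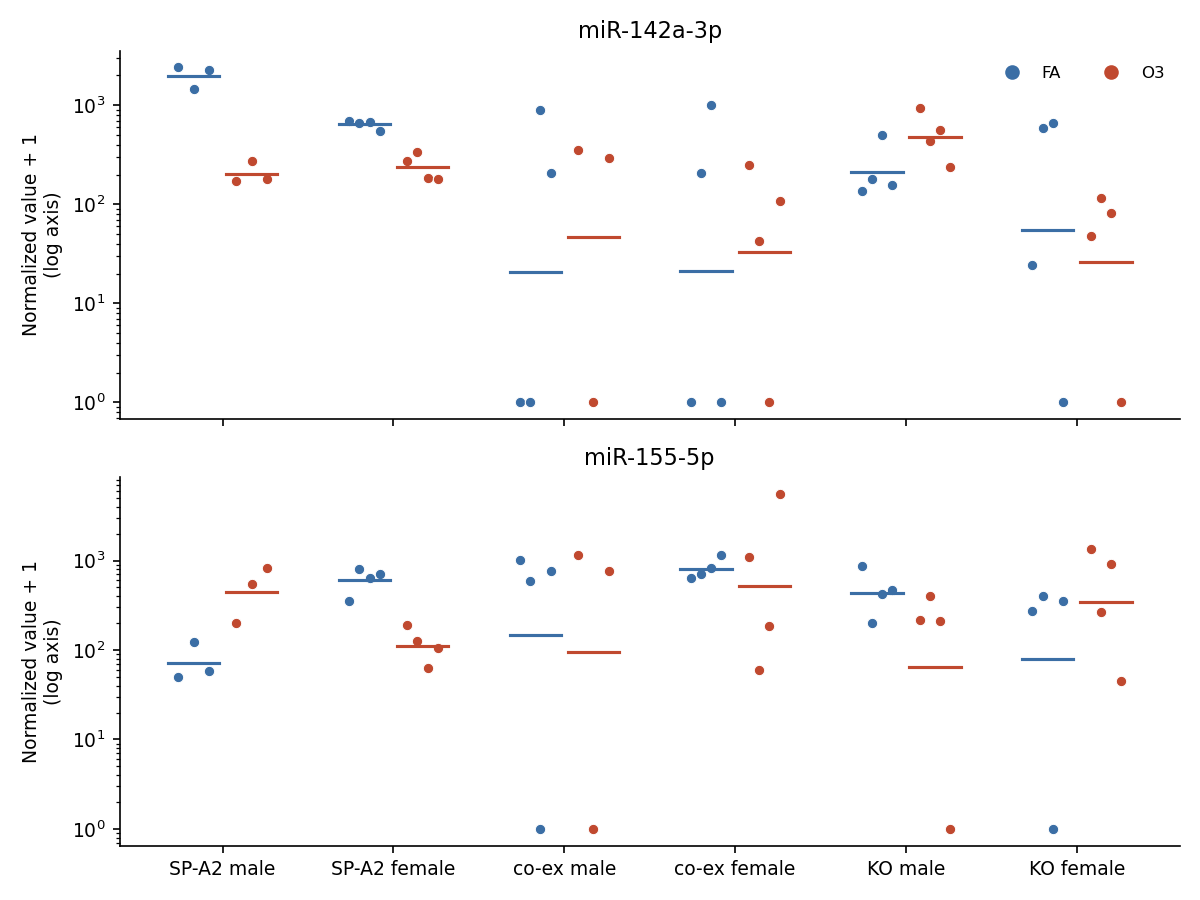
Normalized value + 1 (log axis) of miR-142a-3p and miR-155-5p in each mouse of the 6 groups, with FA in blue, O3 in red and bars at the means on the log scale; points at 1 are mice listed at 0. Each table was normalized on its own, so levels are compared within a group: miR-155-5p lies higher after O3 in SP-A2 males and lower in SP-A2 females.

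Finally, 77 of the 448 miRNAs are listed in no other table. Their median level was 6.49 and their highest mean level 46.9, and 55 of them were below 10. Among these 77, 12 were higher and 7 lower without overlap between the groups, beside 12.7% and 9.6% of all 448.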

How the data were processed

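Small RNA of AM was sequenced from 3 FA and 3 O3 mice, with libraries made by the NEXTflex Small RNA kit. The authors deposited, for each genotype and sex, a normalized signal per miRNA and mouse, which is the read count divided by a factor of that mouse. The labels name CASAVA and edgeR, the study names edgeR and TCC, and the deposited data are named after DESeq2. Which of these tools gave the normalized values is not settled. The aligner, the miRNA reference and the use of molecular identifiers are not given in the sources used here. The tables also hold the authors' p-value, q-value and rank of each miRNA, which were not used. Among the values of the SP-A2 males, 100% were whole multiples of 1 step (relative tolerance 1e-05), which gave whole reads. Read totals are sums over listed miRNAs and not library depth.

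O3 was compared with FA by limma 3.58.1 (lmFit, eBayes with trend, R 4.3.3) on log2(value + 1), with Benjamini-Hochberg adjustment over 448 miRNAs and an FDR of 0.1. Differences on this scale understate those of low miRNAs. Each mouse was 1 replicate. Arm ratios, (5p + 1) over (3p + 1), and interactions used the same fit, and the share of the top 10 miRNAs used an exact permutation test. Alternatives were pseudocounts of 0.1 and 10, a filter (at least 10 in 3 mice), median-ratio rescaling, an FDR of 0.05, a replicate block, edgeR 4.0.16 and DESeq2 1.42.0 on the recovered reads, and leaving out each mouse. Scripts were tested on simulated data. Sequences are from RefSeq and hosts from the GRCm38 annotation.

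Named miRNAs were those called with their other arm, the 10 with the highest level, the 12 with the smallest p in each direction among those without overlap and with a mean of at least 10, precursors and miRNAs called in the arm ratio or an interaction, and list members. miR-3552, the other Htr2c miRNAs and the genomic neighbours were named after their values were seen. The members and the lists were chosen with earlier results of these data known.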

Additional observations from a re-analysis of the deposited data

Results flagged for a closer look

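For 2 miRNAs the response of SP-A2 males differed from that of another group by the test of the difference itself. For miR-155-5p the response to O3 was 5.06 higher in SP-A2 males than in SP-A2 females on the log2(value + 1) scale (SE 0.83, limma adjusted p = 0.0047), with all 3 O3 males above the FA males and all 4 O3 females below the FA females. For miR-142a-3p the response of SP-A2 males minus that of KO males was -4.48 (SE 0.84, limma adjusted p = 0.0236). In SP-A2 males all 3 O3 mice were below the FA mice, while the KO males overlapped between FA and O3. KO females, not tested here, had a lower median in O3 (63.6) than in FA (307), with overlap. For miR-155-5p, the KO and co-ex mice of both sexes overlapped between FA and O3. The test for a single outlying mouse was not run on groups of 3.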

How the results depend on the processing

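The number of miRNAs called between O3 and FA was 3 with either other pseudocount, with the low-value filter and with rescaling. It was 1 with an FDR of 0.05, 5 with edgeR (4 higher, 1 lower) and 54 with DESeq2 (34 higher, 20 lower), and between 1 and 40 when 1 mouse was left out. It was 40 without O3 replicate 3, 29 without O3 replicate 1 (23 higher, 6 lower) and 1 without any other mouse. Arm ratio calls were 5 with a pseudocount of 10, and 0 to 5 without 1 mouse. Calls against SP-A2 females were 1 to 3, and those against KO males 0 to 2, without 1 mouse. The share of the top 10 miRNAs reversed to 0.10 points without O3 replicate 3 (exact p = 1) and ranged from -8.04 to 0.10 without 1 mouse, and miR-142a-5p, which reversed without the same mouse, from -0.40 to 0.045. For single miRNAs and arm ratios, 323 values kept their direction and side of the threshold, 45 passed and 29 no longer passed. The list medians without O3 replicate 3, chosen after seeing the data, moved by more than the spread between mice for the epithelial list (0.95) and the miR-23/27/24 list (0.27).

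Same-numbered FA and O3 mice deviated together with r of 0.117, -0.05 and -0.05, and not every mouse correlated best with its own number. So few values cannot decide whether the numbers pair the mice. With the replicate block, 1 miRNA was called between O3 and FA (miR-142a-3p), 2 arm ratios, and 0 against KO males.

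With 3 mice a group and fewer reads in FA, differences of miRNAs with few reads were not detectable or rest on the reads of 1 group.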
